A study of Mus musculus with 2 samples.

Results

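The mouse zinc finger genes numbered from Zfp900 to Zfp999 were examined in DNase-seq data, an assay in which the nuclease DNase I cuts accessible chromatin. The members were the autosomal protein-coding genes of GENCODE M21 whose symbols consist of Zfp9 and exactly 2 more digits, and 63 of 20807 autosomal protein-coding genes met this rule. The name alone decides which genes are members, though the set was chosen with earlier results of these data known. Both libraries came from female mice aged 25 days of the strain B6CASTF1/J, a hybrid whose parents are C57BL/6 and CAST mice. The labels name the tissue as a layer of hippocampus, without saying which layer, and elsewhere simply as hippocampus. They are biological replicates 1 and 2 of a single group, for which the labels name no treatment, and carry 1 shared donor entry, so no test between conditions exists and part of their difference may be technical.

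C2H2 zinc finger proteins bind DNA through tandem fingers, each of which reads a few bases, so that long arrays recognise long target sequences. Many also carry a KRAB domain near the amino terminus, which recruits the corepressor Trim28 and through it histone methylation and heterochromatin proteins. Such proteins are best known for silencing endogenous retroviruses and other transposons. Their genes multiplied by local duplication and often stand in arrays of near-identical copies, in which a short sequencing read can be hard to place.

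By pattern search of the longest annotated translation, 59 of the 63 members encode 3 or more C2H2 fingers, with a median of 11 and a highest number of 21 in Zfp974. The exceptions were Zfp993 with 2 fingers and Zfp935, Zfp957 and Zfp972 with 0. A KRAB pattern was found in 35 members, and a shorter version of that pattern, added after values were seen, in 52.

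A promoter is called open here when the stricter peak lists of both libraries, which are the shorter of the 2 lists deposited for each, hold a peak within 500 bp of any annotated start. By this measure 34 of 63 members, or 54%, were open, against 55.3% of all autosomal protein-coding genes and 89.2% of the 295 other autosomal genes named Zfp and a number. The members thus stood near the background of all genes and below their own namesakes. In replicate 1 a strict promoter peak was found at 35 members and in replicate 2 at 36, or 55.6% and 57.1%, where all genes had 61.4% and 55.9%. Another 26 members, or 41.3%, had no strict promoter peak in either library, against 38% of all genes and 8.47% of the other Zfp genes. The share of members with a peak in 1 library only was 4.76%, against 6.67% of all genes and 2.37% of the other Zfp genes. Members with no strict promoter peak in either library are called closed below. The term names a lack of peaks, also where reads may not be placeable.

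The state of a promoter went with its place in the genome. C2H2 genes were joined into regions where gaps between them were at most 1000 kb, and 3 such regions held 36 of the members. On chromosome 4, 16 members stood within chr4:145510759-148954889, and 1 of them was open. On chromosome 2, 10 members stood within chr2:174643534-178078476, of which 0 were open in both libraries and 2 had a peak in 1 library. On chromosome 17, 10 members stood within chr17:21008903-24682016, and 10 of 10 were open. Of the 27 members elsewhere, 23 were open, or 85.2%.

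**Figure D1:**
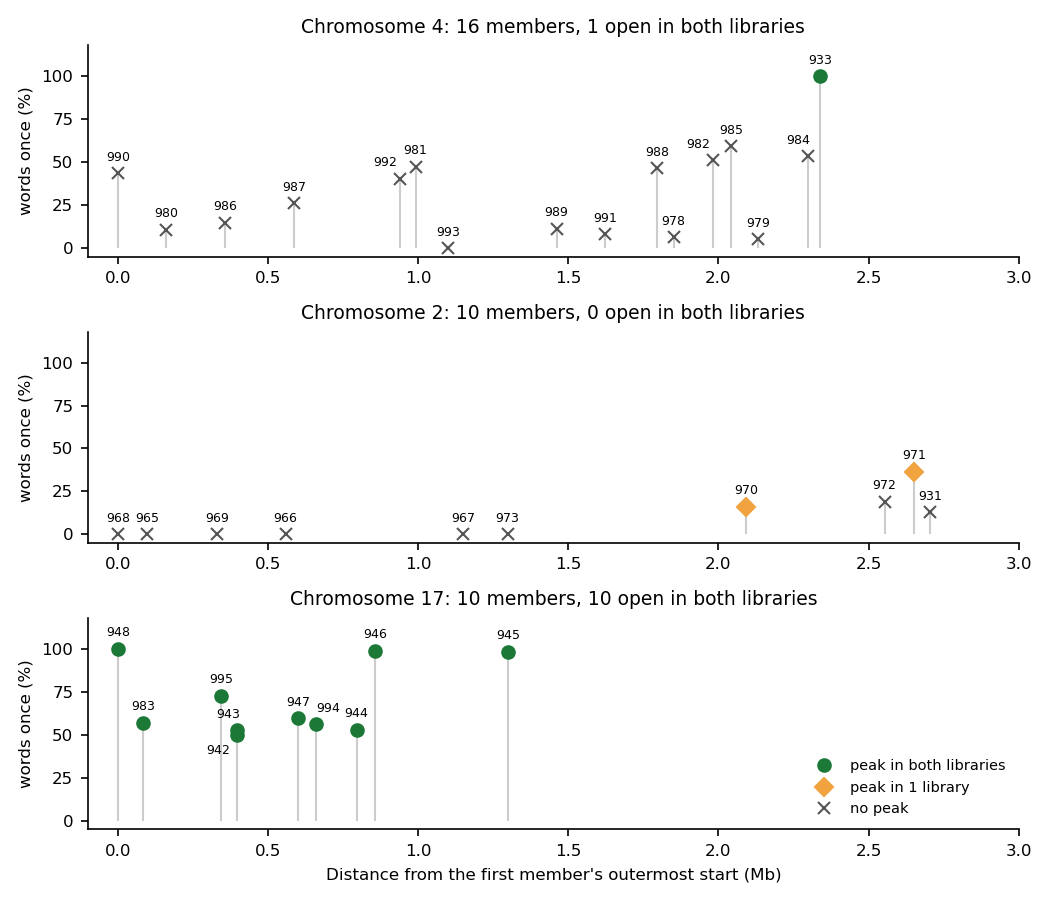
Members of the chromosome 4, 2 and 17 regions, by distance in Mb from the first member (x axis) and by the percentage of 36-base words around the start that occur once in the genome (y axis). Numbers are the digits of the symbols. Green circles are open in both libraries, orange diamonds have a peak in 1 library and grey crosses have none: 1 of 16 members is green on chromosome 4, 0 of 10 on chromosome 2 and 10 of 10 on chromosome 17.

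The sequences before the outermost starts show how alike these promoters can be, and which letters occur at open and at closed ones. Each is the 250 bases before the outermost start, read 5′ to 3′ on the gene's strand from the reference genome, GRCm38.p6 (mm10), and overlaps no annotated exon. The CAST haplotype of these hybrids may differ from it. Capitals mark matches on either strand to a CCAAT box (CCAAT), a GC box (GGGCGG), an ETS motif (CCGGAAGT), a cyclic AMP response element (TGACGTCA) or the longer ZNF143 motif. The first trio holds the open members with the highest rank of promoter signal, Zfp961 (chr8:71950788-71951037, plus strand), Zfp994 (chr17:22225617-22225866, minus strand) and Zfp963 (chr8:69749971-69750220, minus strand).

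Zfp961: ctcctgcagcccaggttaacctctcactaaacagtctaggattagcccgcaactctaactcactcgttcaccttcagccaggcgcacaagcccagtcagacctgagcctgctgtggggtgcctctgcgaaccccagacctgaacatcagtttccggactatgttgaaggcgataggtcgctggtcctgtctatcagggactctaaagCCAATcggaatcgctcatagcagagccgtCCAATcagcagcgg
Zfp994: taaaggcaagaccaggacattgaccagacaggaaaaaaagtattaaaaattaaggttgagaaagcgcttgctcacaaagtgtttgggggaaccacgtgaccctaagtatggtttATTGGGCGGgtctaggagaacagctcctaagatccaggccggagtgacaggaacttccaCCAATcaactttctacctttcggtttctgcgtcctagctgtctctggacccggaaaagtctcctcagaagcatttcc
Zfp963: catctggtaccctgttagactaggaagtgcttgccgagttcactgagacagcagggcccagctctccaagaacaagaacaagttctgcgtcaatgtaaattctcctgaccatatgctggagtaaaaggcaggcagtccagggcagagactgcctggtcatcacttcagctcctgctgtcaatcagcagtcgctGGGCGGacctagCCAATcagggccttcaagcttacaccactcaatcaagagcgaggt

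Each of the 3 holds at least 1 CCAAT box, and Zfp961 and Zfp994 hold 2 each. Of the 250 bases of Zfp961, 177 lay in its strongest peak in both libraries, and of those of Zfp994, 124 did in replicate 1 and 184 in replicate 2. The strongest peak of Zfp963 lay on the other side of its start, inside the gene, and took in 0 of these bases, while a weaker peak of replicate 2 (chr8:69749821-69750100, signal 1.76) reached into them.

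The members without a promoter peak that had the highest CpG ratio are shown next: Zfp936 (chr7:43113979-43114228, plus strand), and Zfp967 (chr2:176520806-176521055, plus strand), whose 250 bases are the same, letter for letter, as those of Zfp969 (chr2:175703647-175703896, minus strand).

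Zfp936: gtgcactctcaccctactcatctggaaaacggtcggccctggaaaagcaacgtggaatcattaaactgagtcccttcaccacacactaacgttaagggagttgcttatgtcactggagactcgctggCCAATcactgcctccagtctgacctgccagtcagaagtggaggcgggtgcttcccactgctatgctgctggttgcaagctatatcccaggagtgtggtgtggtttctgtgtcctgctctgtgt
Zfp967 and Zfp969: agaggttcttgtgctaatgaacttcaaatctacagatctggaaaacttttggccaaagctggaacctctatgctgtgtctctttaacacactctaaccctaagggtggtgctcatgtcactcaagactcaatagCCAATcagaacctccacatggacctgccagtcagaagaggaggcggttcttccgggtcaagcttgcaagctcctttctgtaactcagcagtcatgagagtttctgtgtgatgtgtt

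These promoters without a peak also hold a CCAAT box, 1 each. At Zfp967 and Zfp969, 0% of the 36-base words around the start occur once in the genome. Their lack of a peak may thus be a lack of placeable reads. A further pair, chosen after values were seen, are neighbours on chromosome 7 which belong to 1 array: Zfp976 (chr7:42642589-42642838, minus strand), which was open, and Zfp977 (chr7:42592548-42592797, minus strand), which had no peak.

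Zfp976: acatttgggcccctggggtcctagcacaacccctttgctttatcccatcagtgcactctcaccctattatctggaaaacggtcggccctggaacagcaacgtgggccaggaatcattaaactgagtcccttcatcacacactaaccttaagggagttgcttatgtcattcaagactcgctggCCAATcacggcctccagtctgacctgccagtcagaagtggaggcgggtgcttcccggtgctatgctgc
Zfp977: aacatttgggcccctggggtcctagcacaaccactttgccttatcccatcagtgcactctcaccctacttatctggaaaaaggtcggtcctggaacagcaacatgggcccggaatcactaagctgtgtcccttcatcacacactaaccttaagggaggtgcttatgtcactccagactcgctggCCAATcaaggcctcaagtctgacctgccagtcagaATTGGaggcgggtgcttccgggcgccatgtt

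Over 300 bases, from 250 before to 50 after the start, Zfp976 and Zfp977 were 89.3% identical. Zfp976 had a promoter signal of 1.26 in replicate 1 and 0.878 in replicate 2, while Zfp977 had no base at a false discovery rate (FDR) of the cut rate up to 0.05 in either library. Of the 36-base words around the start, 69.9% occur once in the genome at Zfp977 and 61.2% at Zfp976. The CpG ratio was 0.31 at Zfp977 and 0.41 at Zfp976. The part of either measure in the missing peak was not tested.

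The longest run of bases shared by the promoters of Zfp967 and Zfp976 is GACCTGCCAGTCAGAAG, which lies after the CCAAT box in both. This 17-base run, found after values were seen, stood in the 250 bases of 11 members, of which 2 were open and 7 had no strict peak, and of 30 genes in all, or 0.144%. Of those 30 genes 7 were open, and 26 were C2H2 zinc finger genes. The 11 members are 8 of the chromosome 2 region and Zfp936, Zfp975 and Zfp976 on chromosome 7. Reads may not be placeable at Zfp968, Zfp965, Zfp969, Zfp966, Zfp967 and Zfp973, where 0% of the 36-base words occur once.

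Across all members, a CCAAT box was found in the 250 bases of 47, or 74.6%, against 35.5% of all genes. It stood at 21 of 34 open members (61.8%), at 26 of the 29 others (89.7%) and at 36.7% of all open genes. Many of the others are much alike in sequence. Identity to the nearest member had a median of 98.2% in the chromosome 2 region and 85.7% in the chromosome 4 region. A GC box was found at 31.7% of members and 39.6% of all genes. It stood at 23.5% of open members, 41.4% of the others and 55.2% of all open genes. The TATA box letters TATAAA were found at 0 of 63 members and at 11.6% of all genes. An ETS motif stood at 3 members, Zfp938, Zfp945 and Zfp974, and these 3 were open. Over all genes 682, or 3.28%, had an ETS motif, and 618 of these were open, so open members with one are near the background. The NRF1 and YY1 motifs were found at 0 members, against 0.952% and 0.221% of all genes, and the cyclic AMP response element at 1, Zfp953, against 1.93%. The ZNF143 letters stood at 2 members, or 3.17%, against 0.351% of all genes. Motifs were sought on both strands, and a CCAAT box and a GC box may overlap, as in the run ATTGGGCGG before Zfp994.

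Promoter signal, the deposited strength of the strongest peak near a start, whose scaling is not stated, spread widely among the 34 open members. In replicate 1 it ran from 0.36 to 11.6 with a median of 1.89, and in replicate 2 from 0.27 to 3.41 with a median of 1.32. The medians over all open genes were 4.40 and 1.83, and over the open other Zfp genes 3.68 and 1.82. In replicate 1, 28 of the 34 open members lay under the median of all open genes, and in replicate 2, 25 did. Open members thus had mostly weaker promoter peaks than open genes in general, with 2 libraries and no test.

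Zfp961 had the strongest promoter, with 11.6 in replicate 1 and 3.41 in replicate 2, and stood above 97.7% and 93.5% of open genes. Its strongest peak lay at chr8:71950861-71951080 in replicate 1. Zfp994 followed with 5.20 and 2.89, from a peak at chr17:22225561-22225740 in replicate 1. No other open member of the chromosome 17 region reached the median of all open genes in either library. Zfp963, with 5.51 and 2.11, and Zfp964, with 5.36 and 1.85, stand in 1 array on chromosome 8, and both were above those medians. Zfp958 had 3.47 and 2.66 and Zfp956 had 4.67 and 2.01. Zfp953 had 3.94 and 2.03 and Zfp952 had 3.64 and 2.03. These 8 are the members of highest mean rank over both libraries. Zfp932, whose protein is known to bind endogenous retroviruses of the ERVK class, lay lower with 2.88 and 1.29, and is named for that role.

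The open member of lowest mean rank over both libraries was Zfp947, with 0.368 in replicate 1 and 0.270 in replicate 2. Zfp944 had 0.669 and 0.623, Zfp951 had 0.36, the lowest of replicate 1, and 0.72, and Zfp945 had 1.01 and 0.653. Zfp947, Zfp944 and Zfp945 belong to the chromosome 17 region, so the region in which every member was open also holds 3 of the 4 of lowest mean rank. The promoters of Zfp947 and Zfp995 were 87.3% identical, and Zfp995 had 0.868 and 0.945.

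Of the 34 open members 30 had the higher signal in replicate 1, and the exceptions were Zfp960, Zfp995, Zfp933 and Zfp951. The median log2 ratio of replicate 1 to replicate 2 was 0.68 over open members, 1.04 over open other Zfp genes and 1.25 over all open genes. The libraries ranked the open members alike, with a Spearman rho of 0.868 across these genes, which share 2 libraries and are not independent replicates. Over all open genes rho was 0.852.

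**Figure D2:**
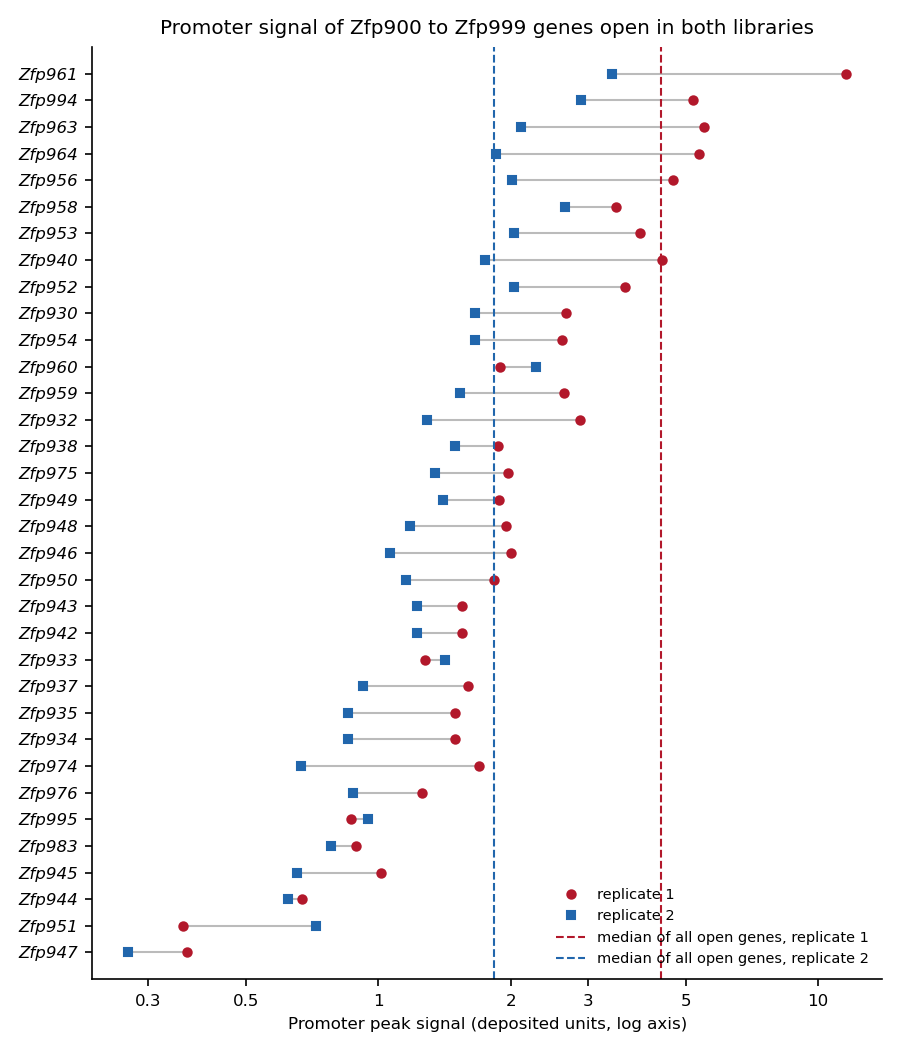
Promoter signal in deposited units (x axis, log scale) of the 34 members open in both libraries (y axis). Red circles are replicate 1, blue squares replicate 2, a grey line joins both, and dashed lines are the medians of all open genes, 4.40 and 1.83. Most members lie left of the dashed line of their own library, and Zfp961 lies farthest to the right.

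Pairs of members shared promoters. Zfp942 and Zfp943 start 87 bases apart and run away from each other, and both peaks found there lay in the windows of both genes. The stronger (chr17:21962601-21962900 in replicate 1) had 1.55 in replicate 1 and 1.22 in replicate 2, and the weaker had 1.29 and 0.563. Zfp934 and Zfp935 on chromosome 13 also shared a peak, with 1.49 and 0.855. The strongest peaks of the 34 open members in replicate 1 were therefore 32 separate ones. The windows of 10 open members also held the start of another gene, such as Zfp758 at Zfp944. At 34 of the 34 the strongest peaks of the 2 libraries overlapped each other.

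The 3 members with a strict promoter peak in 1 library only were Zfp971, with 0.816 in replicate 1, and Zfp970 and Zfp941, with 0.405 and 0.638 in replicate 2. Each had a peak in both of the longer, less strict lists, where Zfp970 had 0.338 in replicate 1, Zfp971 had 0.540 in replicate 2 and Zfp941 had 1.10 in replicate 1. Their state thus turned on the stringency of the list. With the longer lists 37 members, or 58.7%, were open, against 61% of all genes.

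On chromosome 4 the closed members were Zfp990, Zfp980, Zfp986, Zfp987, Zfp992, Zfp981, Zfp993, Zfp989, Zfp991, Zfp988, Zfp978, Zfp982, Zfp985, Zfp979 and Zfp984. On chromosome 2 they were Zfp968, Zfp965, Zfp969, Zfp966, Zfp967, Zfp973, Zfp972 and Zfp931, and elsewhere Zfp977 and Zfp936 on chromosome 7 and Zfp957 on chromosome 14. None of these 26 had a base at an FDR up to 0.001 near a start in either library, where open members had 160 to 905 such bases in replicate 1 and 399 to 967 in replicate 2. Over all members, 25 had no base at an FDR up to 0.05 in either library, or 39.7% against 32.3% of all genes and 6.44% of the other Zfp genes. The same number had no peak in any of the 4 lists, where all genes had 33.2% and the other Zfp genes 6.78%. Zfp957 alone of the 26 had a peak in a longer list, of 0.495 in replicate 2, and it also had 2 footprints there.

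The distance from a start of these 26 to the nearest strict peak had a median of 203.6 kb in replicate 1 and 334.3 kb in replicate 2. For Zfp981 it reached 586.8 kb and 1198 kb. The shortest distances were 4.34 kb at Zfp957 in replicate 1 and 19.7 kb at Zfp931 in replicate 2. The lack of peaks in the chromosome 4 and 2 regions thus extended beyond the promoters: 13 of 16 and 5 of 10 members there had no strict peak within 50 kb of the gene in either library. Over all members this held for 19 of 63, or 30.2%, against 9.67% of all genes and 2.71% of the other Zfp genes. Whether reads could be placed over these stretches was not measured.

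Zfp933 was the exception on chromosome 4. It stands last in the row of members, 38.6 kb from the closed Zfp984, and had 1.28 in replicate 1 and 1.42 in replicate 2. At Zfp933, 100% of the 36-base words occur once in the genome, where the 15 closed members of the region had 0% to 59.2%, and its CpG ratio of 0.49 was the highest among the members there. Its 250 bases (chr4:147848367-147848616, minus strand), of which 196 lay in the peak of replicate 1 and 234 in that of replicate 2, hold the ZNF143 letters and no CCAAT box. Neither sets it apart in the region, where the closed Zfp992 also holds the ZNF143 letters and the closed Zfp991 and Zfp993 also lack a CCAAT box. They were chosen for printing after values were seen.

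Zfp933: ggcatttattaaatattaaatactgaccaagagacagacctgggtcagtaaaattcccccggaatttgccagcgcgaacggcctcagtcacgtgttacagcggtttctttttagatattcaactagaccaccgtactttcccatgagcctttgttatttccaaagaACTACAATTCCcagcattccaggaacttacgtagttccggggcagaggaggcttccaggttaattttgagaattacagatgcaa

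How far a read can be placed moved with these results. As a measure of it, 36-base and 76-base words within 500 bp of the outermost start were counted as unique when they occur once in the genome on both strands. The length of the sequenced reads is not stated in the sources. The median share of unique 36-base words was 52.7% over members and 100% over all genes. It was 90.9% over open members and 13.8% over those with no strict peak. At Zfp968, Zfp965, Zfp969, Zfp966, Zfp967, Zfp973 and Zfp993 it was 0%, and of 76-base words at most 0.54% were unique there, so that a lack of peaks there cannot be told apart from a lack of placeable reads.

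Of the 28 members with under 50% unique words 6 were open (21.4%, against 7.41% of all genes and 36.4% of other Zfp genes in that class). With 50 to 90%, 11 of 16 were open (68.8%, against 33% of all genes and 93.5% of other Zfp genes), and with 90% or more, 17 of 19 (89.5%, against 60.9% of all genes and 90.9% of other Zfp genes). The share of members was close to that of their namesakes in the class of 90% or more, and below it in the other classes. With under 50%, 0 of 10 were open in the chromosome 2 region and 0 of 12 in the chromosome 4 region. Against this, 1 of 1 was open in the chromosome 17 region and 5 of 5 outside these regions. Outside them, 5 of 7 were open with 50 to 90% and 13 of 15 with 90% or more, so the share did not rise there. Of the 6 open with under 50%, Zfp934 was open at another start than the one measured. The 2 of the 19 that were not open in both were Zfp941, with 100% unique words and a peak in 1 library, and Zfp957, with 91.5%.

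Counts by region were also made within 1 range of unique words. Between 40 and 75%, a range chosen after values were seen, 0 of 7 members of the chromosome 4 region and 7 of 7 of the chromosome 17 region were open, and 5 of 7 elsewhere. Members of 1 array are not independent replicates, and the open share of other genes in this range was not counted. The unique 76-base words of these members ran from 72.0% to 96.8% on chromosome 4 and from 74.5% to 95.9% on chromosome 17. Their CpG ratios ran from 0.17 to 0.27 on chromosome 4 and from 0.29 to 0.78 on chromosome 17. The part of either measure in the difference was not tested.

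Likeness to other members went the same way over all members, but not outside the chromosome 2 and 4 regions. In the same 300 bases, 27 members were at least 80% identical to another member, and 5 of them were open. Of the 36 less alike members 29 were open. The 5 were Zfp942, Zfp944, Zfp947 and Zfp995 on chromosome 17 and Zfp976 on chromosome 7. Outside the chromosome 2 and 4 regions, Zfp977 alone of the 27 was not open. Inside those regions, no member of the 27 was open in both libraries. Members of 1 array are not independent replicates, and likeness among other genes was not counted. Identical promoters over 300 bases were found for Zfp965 and Zfp973, Zfp967 and Zfp969, and Zfp978 and Zfp979, and no peak was found at any of these 6.

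CpG dinucleotides, which are dense at many promoters that are open across tissues, were scarcer than elsewhere. The ratio of observed to expected CpG in 1000 bp around the outermost start had a median of 0.36 over members, 0.57 over all genes and 0.65 over the other Zfp genes. With all genes cut into low, middle and high classes of equal size, 5 of 24 low members were open (20.8%, against 11.9% of all genes and 44% of other Zfp genes in the class). Of the middle ones 26 of 36 were open (72.2%, against 64% and 92.3%), and of the high ones 3 of 3 (against 90.1% and 95.4%). In the low and middle classes the members thus stood above all genes and below the other Zfp genes. Of the 5 open low members, Zfp934 was open at another start than the one measured. Among open genes of the middle class the median signal was 1.99 and 1.46 for members and 3.69 and 1.61 for all genes, in replicates 1 and 2. Within this class the members still had the lower CpG ratio, with a median of 0.417 against 0.569. Among open genes with under 50% unique words the median signal was 1.52 and 0.889 for members and 1.61 and 1.21 for all genes, and with 90% or more it was 2.62 and 1.66 against 4.42 and 1.84. The part of CpG content or unique words in the lower signal was not tested.

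**Figure D3:**
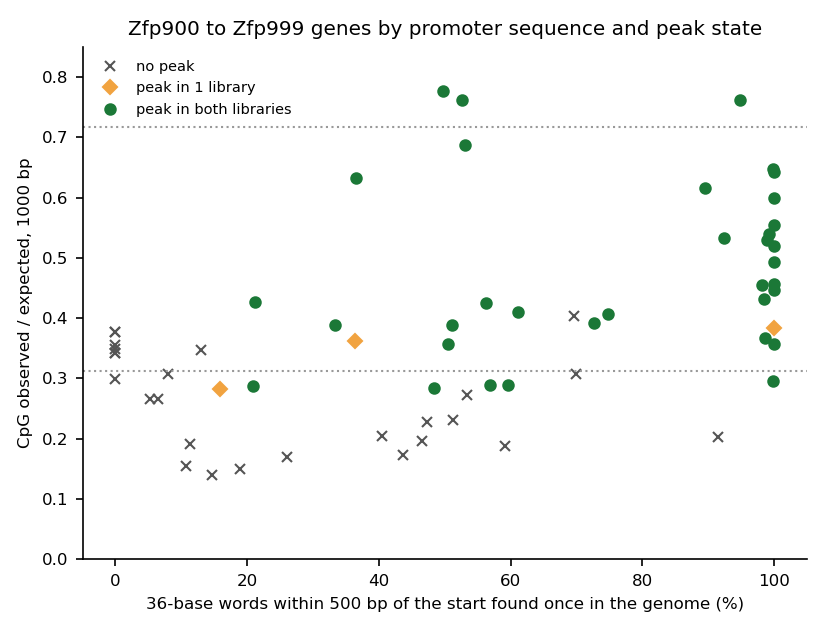
The 63 members by the percentage of 36-base words near the start that occur once in the genome (x axis) and by CpG ratio in 1000 bp (y axis), with symbols by peak state and dotted lines at the bounds of the CpG classes over all genes. Crosses (no peak) gather at low values of both measures, and circles (open) spread over the upper and right parts.

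**Figure D4:**
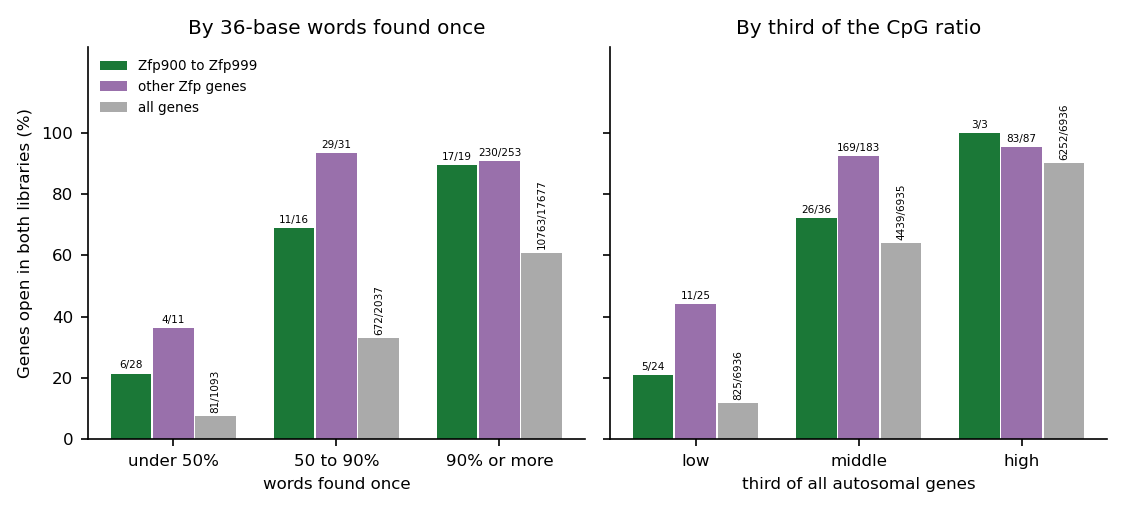
Percentage of genes open in both libraries (y axis) by class of unique 36-base words (left) and of CpG ratio (right), with numbers open and in all above each bar. Green bars are the members, purple bars other Zfp genes and grey bars all autosomal protein-coding genes: the members rise from 21.4% to 89.5% over the word classes. The lowest word class holds 10 members of the chromosome 2 region and 12 of the chromosome 4 region, with 0 open in each.

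Clustering in the narrower sense, with at least 2 other C2H2 genes within 250 kb, held for 54 members, of which 27 were open (50%, against 58.2% of all clustered genes and 94.9% of clustered other Zfp genes). Of the 9 members outside clusters 7 were open (77.8%, against 55.2% of all genes and 82.5% of other Zfp genes outside clusters). Among the neighbours, 6 of 28 other C2H2 genes of the chromosome 2 region were open, 1 of 5 on chromosome 4 and 16 of 18 on chromosome 17. The median share of unique 36-base words at these neighbours moved the same way, with 10.2%, 19.4% and 99.8%, and its part in the counts was not tested.

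Footprints are short stretches within open chromatin that are cut less than their surroundings, as under a bound protein. At least 1 lay near a start in both libraries at 36 members, or 57.1%, against 58.1% of all genes and 91.2% of the other Zfp genes. An open member held a median of 5 footprints in replicate 1 and of 4 in replicate 2, and an open gene over all genes a median of 6 and of 5. Zfp942 and Zfp943, which share their promoter, had the most over both libraries, 11 in replicate 1 and 5 in replicate 2. In replicate 2 alone Zfp959 had the most, 8, and it had 3 in replicate 1. Zfp994 had 10 and 4, Zfp960 had 9 and 5, and Zfp963 and Zfp950 had 8 and 6 each. Zfp947, the open member of lowest mean rank of promoter signal, had 5 in replicate 1 and 0 in replicate 2.

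Few accessible regions lay around the members outside promoters. A distal region is an overlap of strict peaks of both libraries outside the 500 bp windows of all protein-coding and long noncoding RNA genes. At least 1 lay in the gene or within 50 kb of it at 18 members, or 28.6%, against 74.3% of all genes and 65.4% of other Zfp genes. The median was 0 per member, 1 per other Zfp gene and 2 per gene over all genes. Inside the gene body 7.94% of members had one, against 26.5% of all genes and 14.9% of other Zfp genes. These members were Zfp948, Zfp943, Zfp944, Zfp950 and Zfp961. Gene length was not taken into account, and unique words were counted near starts only.

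Zfp948 had the most distal regions, 4, of which the strongest in replicate 1 lay at chr17:21532441-21532900 with 2.34 in replicate 1 and 0.885 in replicate 2. Zfp943 and Zfp931 had 3 each, and 7 members had 2. Zfp931 is thus a member without a promoter peak but with accessible flanks, though only 12.9% of its 36-base words are unique. Its 3 regions had 2.32, 3.95 and 2.94 in replicate 1 and 0.780, 0.743 and 0.765 in replicate 2. Of these, the region at chr2:178098121-178098300 was the strongest in replicate 1 and the weakest in replicate 2. The strongest distal region near any member in replicate 1 lay at chr8:69206541-69206760 beside Zfp930, with 13.7 in replicate 1 and 2.31 in replicate 2, above the 2.68 and 1.66 of that gene's own promoter. An intron of Zfp950 held one at chr19:61084621-61084800, with 8.57 and 2.54. In replicate 2 the strongest was a region at chr8:4677321-4677620 in the flank of Zfp958, with 6.13 in replicate 1 and 3.04 in replicate 2. Of the 32 pairs of a distal region and a member, 27 lay in flanks, 5 in introns and 0 in exons, and 29 regions were distinct.

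Over the chromosome 2 region there were 2.33 distal regions per Mb, over the chromosome 17 region 10.9, and over all autosomes 8.69. The chromosome 4 region had 9.29 per Mb, but it runs past the members to Casz1, and 0 distal regions lay in the stretches that hold the members.

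The genes through which KRAB zinc finger proteins act were open. From a list chosen with earlier results of these data known, 15 of 15 corepressor genes had open promoters, against 55.3% of all genes, with a median signal of 5.46 in replicate 1 and 2.45 in replicate 2. CpG content was not taken into account for this list. Of all genes 64% in the middle and 90.1% in the high CpG class were open. Trim28, the scaffold that KRAB domains bind, had 6.76 and 2.76. Setdb1, a histone H3 lysine methyltransferase, had 8.71 and 2.45, and Cbx3, a heterochromatin protein, 12.2 and 3.98. Cbx3 was thus above every member in both libraries. Whether the zinc finger genes or these genes were transcribed was not measured.

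The tissue label was checked on marker genes. Of 10 neuron markers 9 were open, against 55.3% of all genes, and Prox1, of dentate granule cells, had a peak in replicate 2 only. Of 8 markers of other brain cells 2 were open, Gfap of astrocytes and Pdgfra of oligodendrocyte precursors, and Slc1a3 and Mbp had a peak in replicate 1 only. Prox1, Slc1a3 and Mbp each had a peak in both of the longer lists. Of 4 genes of foreign tissues 0 were open. In bulk tissue, a promoter open in few cells and one weakly open in many cannot be told apart.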

How the data were processed

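DNase-seq peaks, footprints and cut rates were deposited for 2 libraries of mouse hippocampus, with coordinates on mm10 per the labels. For the aligner, the peak caller and the read length no source used here gives a name or value. The deposited signal of each peak was taken as given, with no further normalisation, and its scaling is not stated. The deposited FDR of the cut-rate files is listed up to 0.05 only, and that of footprints is 0.01 throughout. Depth is unknown, because no read counts were used, and 2 libraries limit the precision.

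Starts came from GENCODE M21, and sequences from GRCm38.p6, whose chromosomes all peak ends fit. Of the 63 members 53 stand in the RefSeq promoter table, and the 17 that share a start with it had the same sequence. A peak counted at an overlap of 1 bp. Word uniqueness covered all chromosomes and scaffolds without patches. Identity was the edit distance over 300 bases. Tools were pandas 2.3.3 and numpy 2.4.6 under Python 3.11.15, numba 0.67.0 and edlib for words and identity, and matplotlib 3.10.9 for plots, and the overlap and word counts were tested on simulated data. The members, lists and alternatives were chosen with earlier results of these data known. Genes named with values are the 8 strongest and 4 weakest open members by mean rank, those with a peak in 1 library, those with most footprints (6 through ties) or distal regions, and every member with no strict peak by name. Other genes named were chosen after values were seen.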

Additional observations from a re-analysis of the deposited data

How the results depend on the processing

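Across 37 alternatives to the 6 summary values, 37 stayed within the limits set. These were 1.5 times the reported count, or 0.403 for signal, the standard deviation of the 2 replicate medians. The number of open members was 34 with windows of 250 or 1000 bp, with basic or protein-coding starts and with at least 50% of the peak inside the window, 37 with the longer lists and 25 with the stronger 50% of the strict lists, where all genes had 48.5% and members 39.7%. It was 35 to 36 in single libraries. Members with a footprint numbered 37 in each library alone. The median number of distal regions was 0 in each alternative. Open members in clusters numbered 25 of 40 with neighbours within 100 kb and 29 of 56 within 1000 kb. No paired analysis was possible because both libraries form 1 group. Depth was unknown, so no interval for counting error could be given, and absence of a peak is not evidence of closed chromatin where few words are unique.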
